A study of Mus musculus with 8 samples.

Results

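The genes of the lysosomal proton pump, the lysosomal hydrolases and their partner proteins were compared between cells sorted as leukemic stem cells (LSCs) from CML mice with and without imatinib, a tyrosine kinase inhibitor (TKI). The members were taken by gene symbol from a list of 44 genes that was chosen with earlier results of these data known. All 44 were found among the 15576 rows of the deposited count table. They comprised 16 genes of the vacuolar ATPase (V-ATPase), 17 hydrolases, 3 luminal cofactors, 7 membrane proteins and the transcription factor Tfeb. All mice were C57BL/6 animals carrying both the BCR-ABL and the SCL-tTA transgene, in which removal of tetracycline turns on BCR-ABL in cells that use the SCL regulatory sequence. The CML group comprised 4 libraries from untreated mice, and the CML-TKI group comprised 4 libraries from mice that received 400 mg/kg imatinib by gavage on alternate days for 4 weeks according to the sample labels. The dose and the length of treatment differ among the sample labels, the legend and the methods of the study. The labels give the sorted bone marrow cells as Lin-Sca1+cKit+Flt3-CD150-CD48+ for all 8 libraries, whereas the study names its LSCs by the opposite pattern of CD150 and CD48. Ages, pooling of animals and whether each library came from a separate mouse were not given in the sources used here, so p values measure only the spread between these libraries.

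Lysosomes are acidic organelles in which proteins, glycans and lipids delivered by endocytosis, phagocytosis and autophagy are degraded. The V-ATPase uses ATP hydrolysis in its cytosolic V1 sector to drive protons through its membrane-embedded V0 sector, and most lysosomal hydrolases need the resulting low pH. Many genes of this system carry a short palindromic promoter sequence, the CLEAR element, that is bound by TFEB and its relatives TFE3, MITF and TFEC. In blood-forming tissue, lysosomal proteases are abundant in granulocytes, monocytes and macrophages, and lysosomal activity is also studied in the maintenance of stem cells.

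Total estimated counts ranged from 4939645 to 8620102 in the CML libraries and from 1041554 in CML-TKI 3 to 5104272 in CML-TKI 1. Levels are given as CPM, that is, counts per library total with TMM scaling between libraries. A floor of 3 counts lay at 0.406 to 0.576 CPM in CML and at 0.566 to 3.27 CPM in CML-TKI libraries, counting error only. The lowest estimated count of any member in any library was 8, so every member lay above the floor. One CML column bears the number 5, which no label gives, and is called CML 5 here. CML 1, 2 and 3 were close to each other, with a chi-square per degree of freedom between 3.99 and 5.95 for each pair. Every other pair within a group had 27.2 to 94.1. The differences among CML 1, 2 and 3 were above counting error, which repeat libraries of 1 sample can also exceed, so whether they are separate samples is not known. They were counted as 3 libraries, as labelled, and the calls with their counts summed into 1 are given beside the main counts. The groups also differed in markers of cell type. Of 11 granulocyte markers 10 were higher in CML-TKI libraries, with a summed level of 161 to 266 CPM in CML and of 1474 to 8501 CPM in CML-TKI libraries. All 9 monocyte and macrophage markers were higher, with sums of 15.4 to 35.3 CPM and of 926 to 4866 CPM, and CML-TKI 1 had the lowest sum of its group for both lists. Of 9 stem cell markers tested 3 were lower and none was higher, with sums of 1107 to 1449.9 CPM in CML and of 47.7 to 424 CPM in CML-TKI libraries. The summed erythroid markers reached 31416 CPM in CML-TKI 3 beside 54.8 to 497 CPM in the other CML-TKI libraries. No marker of these 4 lists was at 0 throughout a group. Of 7 megakaryocyte markers 3 were lower in CML-TKI libraries, with sums of 1254 to 1558 CPM in CML and of 50.2 to 614 CPM in CML-TKI libraries. The 7 lymphoid markers were too low for testing, with sums of up to 1.91 CPM in CML and of 7.55 to 168 CPM in CML-TKI libraries. Dntt and Cd3e were at 0 throughout CML and Igll1 throughout both groups. Slamf1, which encodes CD150, had 37.5, 31.3, 31.1 and 28.8 CPM in CML and 4.53, 0.616, 6.53 and 1.55 CPM in CML-TKI libraries. Cd48 had 6.36, 5.75, 3.84 and 4.10 CPM in CML and 39.6, 177, 96.9 and 96.9 CPM in CML-TKI libraries. Kit had 1002, 952, 1017 and 759 CPM in CML and 276, 193, 289 and 229.8 CPM in CML-TKI libraries. Ly6a, which encodes Sca1, had 33.01, 33.7, 38.2 and 37.8 CPM in CML and 43.96, 9.54, 8.71 and 1.55 CPM in CML-TKI libraries. Of the genes of the labelled sort, Slamf1 and Kit were lower and Cd48 higher in CML-TKI libraries (edgeR adjusted p = 0.00797, 0.00087 and 0.00087), and Ly6a and Flt3 did not pass the test (adjusted p = 0.373 and 0.522). Slamf1 was thus low and Cd48 high in CML-TKI libraries, as in the label, and the reverse held in CML libraries, as in the study's own definition of LSCs. Kit remained at 193 CPM or more in every library. Stem cell and granulocyte genes were also far apart. The stem cell gene Hlf had means of 323 CPM in CML and 24.6 CPM in CML-TKI libraries, and the granule genes Mpo and Elane had 12.5 and 3.23 CPM in CML and 3101 and 1034 CPM in CML-TKI libraries. The markers of the CML-TKI libraries thus go against the name LSC, and the groups are called CML and CML-TKI libraries here. In bulk libraries, more cells of a type and more RNA per cell cannot be told apart, and the part of cell type in the differences described here was not tested.

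Many of the 44 members were higher in the libraries of treated mice. None of the members was called lower by edgeR with all 8 libraries, although Gaa was lower by limma-voom and without CML-TKI 1. At an adjusted p under 0.05, 19 of the 44 members were higher and 0 were lower, which is 43.2% higher beside 6.29% of the 11937 genes tested, with 3.93% of all genes lower. With CML 1 to 3 summed into 1 library, 2 members were called (Ctss and Ctsh) and 0 of the V-ATPase genes, and 4 members were called with a replicate block on libraries 1 to 3. These are 4.55% and 9.09% of the members, beside 0.812% and 1.24% of all genes higher in the same fits. Among the 9073 genes whose mean level was at least that of the lowest member, 11.8 CPM, 7.18% were higher. The adjusted p values come from edgeR, with the Benjamini-Hochberg method over all genes tested, and 25 members had an unadjusted p under 0.05, beside 25.7% of all genes. The members' median log2 fold change of CML-TKI over CML was 0.96, with 39 positive and 5 negative values. The median was -0.00025 over all genes and 0.047 over the genes of at least 11.8 CPM. In 23 members, 52.3%, every CML-TKI library lay above every CML library, and in 0 members every CML-TKI library lay below, beside 10.3% and 13.1% of all genes. V-ATPase genes and hydrolases showed similar counts when read apart, with 7 of 16 (43.8%) and 8 of 17 (47.1%) higher and with median log2 fold changes of 0.96 and 0.99. Of the others, 2 of 3 luminal cofactors and 2 of 7 membrane proteins were higher. The largest differences were those of the cysteine proteases Ctss and Ctsh, followed by Ctsz, the saposin precursor gene Psap, the sialidase gene Neu1 and Lamp1. These 6 genes kept an adjusted p under 0.05 in each of the 8 edgeR fits that left out 1 library. With CML 1 to 3 summed, however, the calls of Ctsz, Psap, Neu1 and Lamp1 were lost (edgeR adjusted p = 0.106, 0.0977, 0.0968 and 0.130), and those of Neu1 and Lamp1 were also lost with the replicate block. The count of members called was 6, 7 and 6 without CML 1, 2 or 3, respectively, and 11 without CML-TKI 2. These are 13.6%, 15.9%, 13.6% and 25.0% of the members, beside 2.97%, 3.12%, 3.34% and 4.57% of all genes higher in the same fits, so calls fell over all genes too. The other 13 calls thus depended on single libraries. Without CML-TKI 1 the count was 23, of which 22 were higher and Gaa was lower. In the same fit 9.64% of all genes were higher, beside 6.29% with no library left out, so calls rose over all genes too. With these libraries left out, V-ATPase calls numbered 0, 1, 0, 3 and 7 and hydrolase calls 4, 4, 4, 5 and 11, in the same order. There were 4 V-ATPase calls without CML-TKI 3 and 5 hydrolase calls without CML-TKI 4, beside 5.62% and 5.30% of all genes higher. The members' median log2 fold change stayed between 0.74 and 0.98 in these fits.

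**Figure D1:**
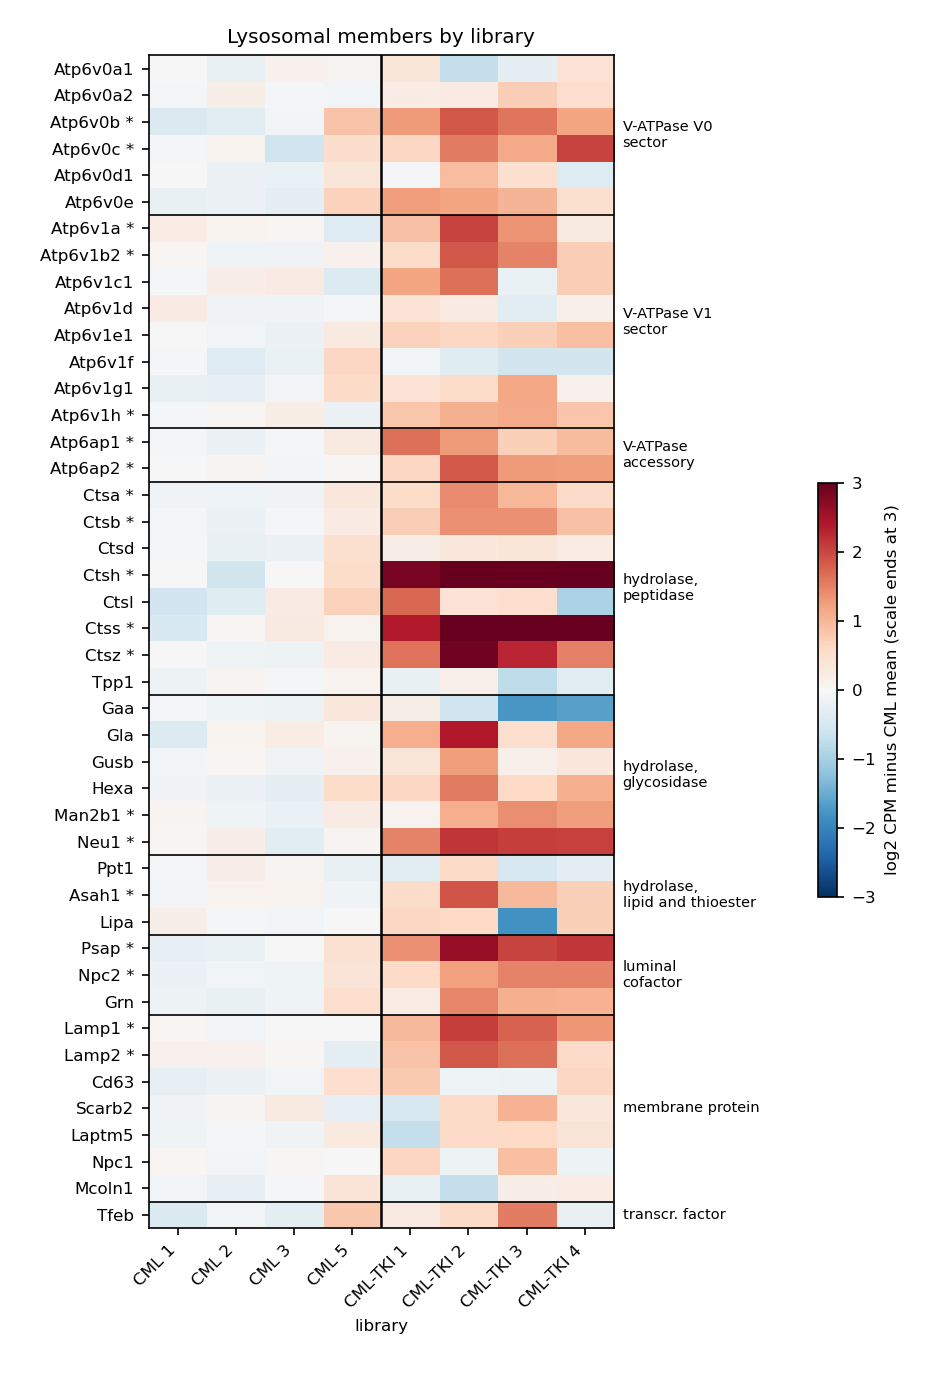
The heat map shows, for each of the 44 members (lines, grouped by role) and each library (columns), log2 CPM minus the mean of the 4 CML libraries, with the color scale ended at 3 and an asterisk on the 19 members with an adjusted p under 0.05. Red prevails in the 4 CML-TKI columns, with medians between 0.61 and 1.21, and Ctsh and Ctss are darkest.

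The libraries differed in how far the members were raised. The median over the 44 members of log2 CPM minus the CML mean was 0.61, 1.21, 0.99 and 0.67 in CML-TKI libraries 1 to 4. Among the 19 called members, CML-TKI 2 had the highest value of its group in 13 and CML-TKI 1 the lowest in 13, and CML-TKI 1 still lay above every CML library in 18 of the 19. CML 5 was the highest CML library in 27 of the 44 members, with a median of 0.26 above the CML mean, while the medians of CML 1, 2 and 3 were -0.061, -0.096 and -0.083. The summed monocyte and macrophage markers were highest in CML-TKI 2 at 4866 CPM, whereas the summed granulocyte markers were highest in CML-TKI 4 at 8501 CPM, beside 8140 CPM in CML-TKI 2. CML 5 had the lowest monocyte and macrophage sum of its group, 15.4 CPM, and the highest granulocyte sum, 266 CPM.

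**Figure D2:**
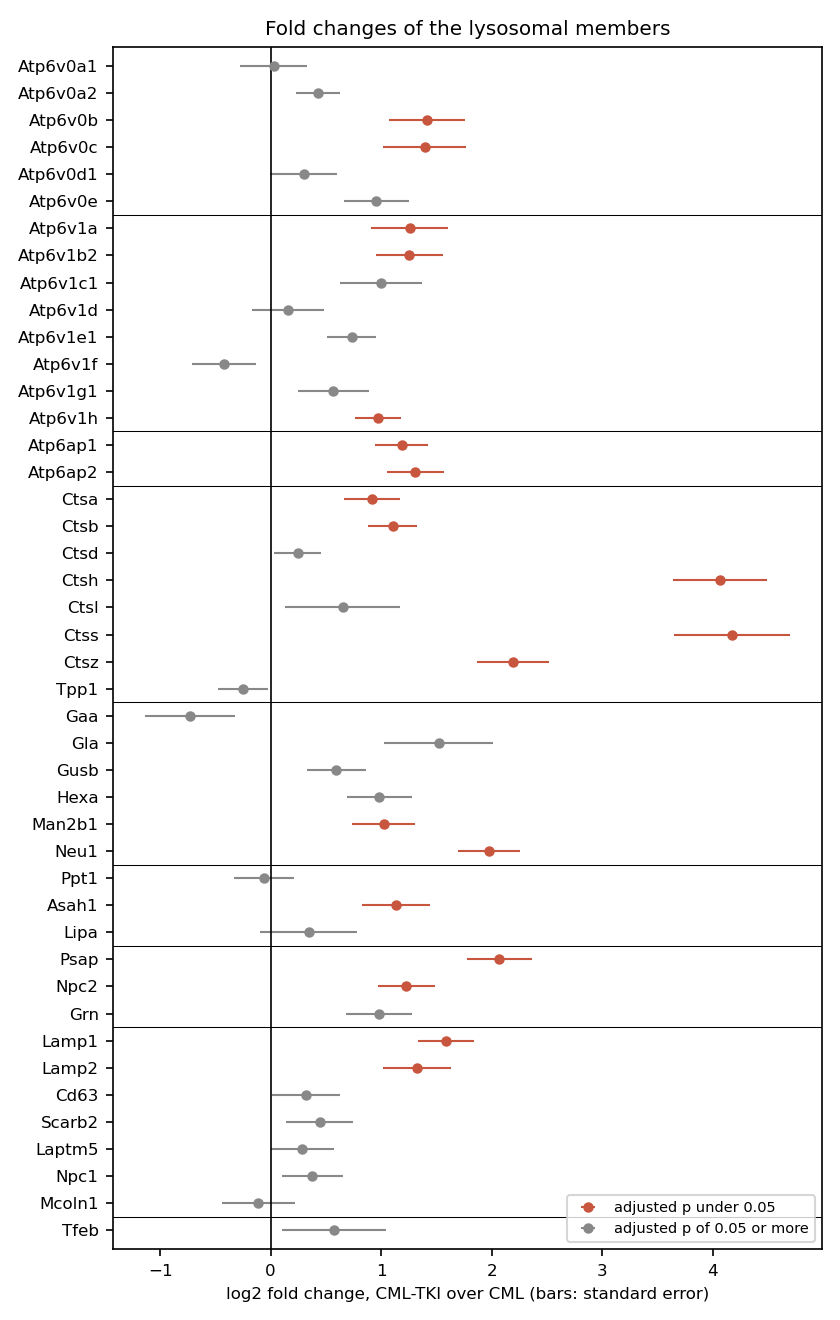
Each point is the log2 fold change of CML-TKI over CML libraries from the edgeR fit (horizontal axis) for 1 member, with its standard error as a bar, red at an adjusted p under 0.05 and grey otherwise, and lines separate the roles. The points of Ctsh and Ctss lie beyond 4, the 7 called V-ATPase genes lie between 0.97 and 1.42, and 5 grey points lie below 0.

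The promoters of the members were read for the CLEAR element. Many lysosomal genes carry it, so a share above that of all genes comes with the choice of list. The RefSeq promoter windows of GRCm38.p6 cover 250 bases before to 50 after an annotated start, and 35 of the 44 members had at least 1 window. The core CACGTG was present, on either strand, in windows of 11 of these members (31.4%) and of 11.9% of the 9507 tested genes with a window. The extended forms TCACGTG and TCACGTGA, both of which contain the core and were searched on both strands, were present in 10 and 7 of the 35 members and in 7.07% and 2.24% of the tested genes. By window rather than by gene, the core was in 26.8% of the 41 member windows and in 10.1% of the 12084 windows of tested genes. The letters TTCNNNGAA, which STAT proteins recognize, were in 0 of the 35 members' windows and in 8.15% of the tested genes' windows, each counted by gene. The core was found in 4 of the 14 called members with a window (28.6%) and in 7 of the 21 that were not called (33.3%). The core was absent from the windows of Ctss, Ctsz, Psap and Neu1, and Ctsh had no window in this table. The 4 called members that hold the core are shown, each by the window with its longest match. The windows of Ctsa and Atp6v1a belong to internal starts and lie wholly inside the span of the gene. Each window runs 5′ to 3′ on the strand of its gene, and the capitals mark TCACGTGA in Ctsa and Atp6v1a and TCACGTG, or CACGTGA where it lies on the other strand, in Lamp1 and Atp6v0b. The windows are chr2:164833523-164833822 on the plus strand for Ctsa, chr16:44139210-44139509 on the minus strand for Atp6v1a, chr8:13158911-13159210 on the plus strand for Lamp1 and chr4:117887280-117887579 on the minus strand for Atp6v0b.
Ctsa: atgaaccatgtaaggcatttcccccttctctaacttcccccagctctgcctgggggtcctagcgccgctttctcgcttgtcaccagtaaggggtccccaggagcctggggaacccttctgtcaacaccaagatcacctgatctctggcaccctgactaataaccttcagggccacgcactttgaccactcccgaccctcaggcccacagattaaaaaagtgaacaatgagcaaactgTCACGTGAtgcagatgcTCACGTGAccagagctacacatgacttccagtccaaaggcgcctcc
Atp6v1a: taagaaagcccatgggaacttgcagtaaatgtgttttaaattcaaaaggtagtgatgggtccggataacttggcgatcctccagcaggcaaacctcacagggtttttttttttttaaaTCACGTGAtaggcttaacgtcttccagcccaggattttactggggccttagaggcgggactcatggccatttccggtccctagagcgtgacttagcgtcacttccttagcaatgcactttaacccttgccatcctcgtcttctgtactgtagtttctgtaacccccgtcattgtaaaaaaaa
Lamp1: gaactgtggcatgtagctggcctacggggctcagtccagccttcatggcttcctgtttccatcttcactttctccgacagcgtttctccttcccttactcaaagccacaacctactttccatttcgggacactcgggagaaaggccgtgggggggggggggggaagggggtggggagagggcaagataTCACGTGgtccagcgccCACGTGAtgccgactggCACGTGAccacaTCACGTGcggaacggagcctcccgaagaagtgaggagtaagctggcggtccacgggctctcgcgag
Atp6v0b: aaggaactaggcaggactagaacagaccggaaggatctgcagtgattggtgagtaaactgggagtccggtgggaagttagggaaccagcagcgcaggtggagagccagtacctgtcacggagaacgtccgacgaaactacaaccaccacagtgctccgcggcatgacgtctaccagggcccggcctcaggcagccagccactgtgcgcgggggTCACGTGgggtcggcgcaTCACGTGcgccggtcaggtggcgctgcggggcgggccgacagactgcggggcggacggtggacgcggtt

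Lamp1 holds 4 matches, whose first bases lie 62, 45, 28 and 16 bases before the annotated start. Atp6v0b holds 2, at 37 and 19 bases before the start, and Ctsa holds 2, at 13 bases before and 4 bases after an internal start. The single match of Atp6v1a lies farther from its start, 132 bases before an internal start. A match of letters is a description of the sequence and was not tied to binding in these cells.

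Of the 6 genes of the V0 sector, which forms the proton channel in the membrane, Atp6v0b and Atp6v0c were higher in CML-TKI libraries. Values per library are TMM-normalized CPM, given for CML 1, 2, 3 and 5 and then for CML-TKI 1 to 4, with n = 4 in each group, and the error after a log2 fold change is its standard error. Atp6v0b (chr4:117884330-117887333), which encodes a proteolipid subunit of the rotating ring, had 16.9, 18.02, 21.9 and 42.3 CPM in CML and 56.6, 85.3, 70.8 and 52.7 CPM in CML-TKI libraries. All CML-TKI values lay above all CML values, and CML 5 was the highest CML library (log2 fold change 1.42 ± 0.35, edgeR adjusted p = 0.0300). Atp6v0c (chr17:24163865-24169678), the gene of the main ring subunit, had 16.2, 17.8, 10.8 and 23.9 CPM in CML and 25.8, 48.95, 37.02 and 68.8 CPM in CML-TKI libraries. The groups did not overlap, with CML-TKI 1 just above CML 5 (log2 fold change 1.39 ± 0.38, edgeR adjusted p = 0.0440). The counts of Atp6v0c are uncertain, since the near-identical copy Atp6v0c-ps2 had 48.8, 41.6, 51.6 and 86.7 CPM in CML and 101, 157, 177 and 76.8 CPM in CML-TKI libraries, more than the gene itself in every library. Atp6v0d1, which links the ring to the central stalk, was the most abundant V0 gene per kilobase of exon in CML libraries, with 44.8 CPM per kilobase in CML and 55.4 in CML-TKI libraries. It had 72.9, 63.9, 62.6 and 92.7 CPM in CML and 69.1, 137, 100.2 and 55.1 CPM in CML-TKI libraries. The groups overlapped, with the lowest value of all in CML-TKI 4 (log2 fold change 0.30 ± 0.30, edgeR adjusted p = 0.580). Atp6v0e, a small membrane subunit, and Atp6v0a2, an isoform of the proton-translocating subunit a, had log2 fold changes of 0.96 and 0.43 without passing the threshold (edgeR adjusted p = 0.0692 and 0.204), and CML 5 stood apart for Atp6v0e at 79.6 CPM. Atp6v0a1, the other subunit a isoform among the members, had a log2 fold change of 0.03 that turned to -0.10 when libraries were scaled by total counts without the ribosomal RNA gene Rn45s. With 1 library left out the adjusted p of Atp6v0b reached 0.102 and that of Atp6v0c 0.131. Both calls were lost without CML 1, 2 or 3 and without CML-TKI 2 or 3, and that of Atp6v0c also without CML 5 or CML-TKI 4.

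In the V1 sector, which binds and hydrolyzes ATP, 3 of 8 genes were higher and 0 were lower. Atp6v1a (chr16:44085402-44139702), the catalytic subunit A, had 135, 124, 121 and 88.6 CPM in CML and 214, 470.4, 297 and 141 CPM in CML-TKI libraries. CML-TKI 2 was the highest and CML-TKI 4 was only slightly above CML 1, and the groups did not overlap (log2 fold change 1.26 ± 0.35, edgeR adjusted p = 0.0489). Atp6v1b2 (chr8:69088736-69113718), the nucleotide-binding subunit B, was the most abundant V1 gene per kilobase in CML-TKI libraries, with 37.7 CPM per kilobase in CML and 90.4 in CML-TKI libraries. It had 112, 99.3, 98.7 and 117 CPM in CML and 156, 388, 301 and 177 CPM in CML-TKI libraries. There was no overlap and CML-TKI 2 was again highest (log2 fold change 1.26 ± 0.30, edgeR adjusted p = 0.0280). Atp6v1h (chr1:5082978-5163213), a subunit that couples the V1 and V0 sectors, had 34.1, 36.8, 40.7 and 31.3 CPM in CML and 63.96, 74.8, 78.4 and 63.6 CPM in CML-TKI libraries. This gene had the narrowest spread of the called V1 genes, and every CML-TKI library lay above every CML library (log2 fold change 0.97 ± 0.21, edgeR adjusted p = 0.0183). Atp6v1f, a central stalk subunit, was the most abundant V1 gene per kilobase in CML libraries (40.4 CPM per kilobase in CML and 30.0 in CML-TKI libraries). Its levels were 40.6, 31.6, 35.9 and 63.6 CPM in CML and 39.1, 32.02, 28.3 and 28.2 CPM in CML-TKI libraries. It was the only V-ATPase member with a negative value in this fit, and the groups overlapped (log2 fold change -0.42 ± 0.29, edgeR adjusted p = 0.394). The stalk genes Atp6v1d, Atp6v1e1 and Atp6v1g1 and the subunit C gene Atp6v1c1 had log2 fold changes of 0.16, 0.73, 0.57 and 0.997 and were not called (edgeR adjusted p = 0.804, 0.0630, 0.298 and 0.120). The subunits of the sector thus differed in size of change, from -0.42 to 1.26. The calls were lost without CML 1, 2 or 3 for all 3 genes, with adjusted p up to 0.124, 0.0935 and 0.0785 for Atp6v1a, Atp6v1b2 and Atp6v1h. Atp6v1a and Atp6v1b2 lost theirs also without CML 5 and without CML-TKI 2 or 3.

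Both accessory genes of the pump, whose products take part in its assembly and trafficking, were higher. Atp6ap1 (chrX:74297097-74304721), which encodes the glycoprotein Ac45, had 81.7, 73.8, 79.7 and 99.8 CPM in CML and 262, 201, 137 and 161 CPM in CML-TKI libraries. CML-TKI 1 had the highest level of Atp6ap1, in contrast to most called members, and the groups did not overlap (log2 fold change 1.19 ± 0.24, edgeR adjusted p = 0.0142). Atp6ap2 (chrX:12587759-12617051), the (pro)renin receptor gene, had 72.2, 77.1, 68.5 and 74.6 CPM in CML and 113, 262, 177 and 173 CPM in CML-TKI libraries. The CML values were close to each other and all CML-TKI values lay above them (log2 fold change 1.31 ± 0.26, edgeR adjusted p = 0.0121). Without CML 1 or CML 3 both calls were lost, and that of Atp6ap1 also without CML 2, with adjusted p up to 0.0632 and 0.0531.

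The isoform of subunit a sets where the pump is placed in the cell and was followed per kilobase of exon. Tcirg1, the gene of the a3 isoform found in lysosomes and in the plasma membrane of osteoclasts, was added. It is not a member, lies at chr19:3896050-3907133 and had 36.1, 35.9, 42.2 and 51.5 CPM in CML and 77.4, 170.2, 184 and 125 CPM in CML-TKI libraries. The groups did not overlap (log2 fold change 1.74 ± 0.30, edgeR adjusted p = 0.00640). The sum of Atp6v0a1, Atp6v0a2 and Tcirg1 was 37.6 ± 2.14 CPM per kilobase (SD, n = 4) in CML and 73.0 ± 14.9 (SD, n = 4) in CML-TKI libraries. Tcirg1 made up 30.9%, 29.6%, 33.3% and 38.7% of this sum in the CML libraries and 43.6%, 67.8%, 61.9% and 52.0% in the CML-TKI libraries. Atp6v0a2 had the largest share in CML 1, 2 and 3, Tcirg1 had the largest share in every CML-TKI library, and the shares of Tcirg1 did not overlap between the groups. The share of Atp6v0a1 was 23.6% ± 2.10 (SD, n = 4) in CML and 13.2% ± 6.86 (SD, n = 4) in CML-TKI libraries, where CML-TKI 1 at 21.3% lay among the CML values. The call of Tcirg1 held in each of the 8 fits that left out 1 library, with adjusted p up to 0.0320 in edgeR. It was lost with the replicate block and with CML 1 to 3 summed (adjusted p up to 0.156).

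**Figure D3:**
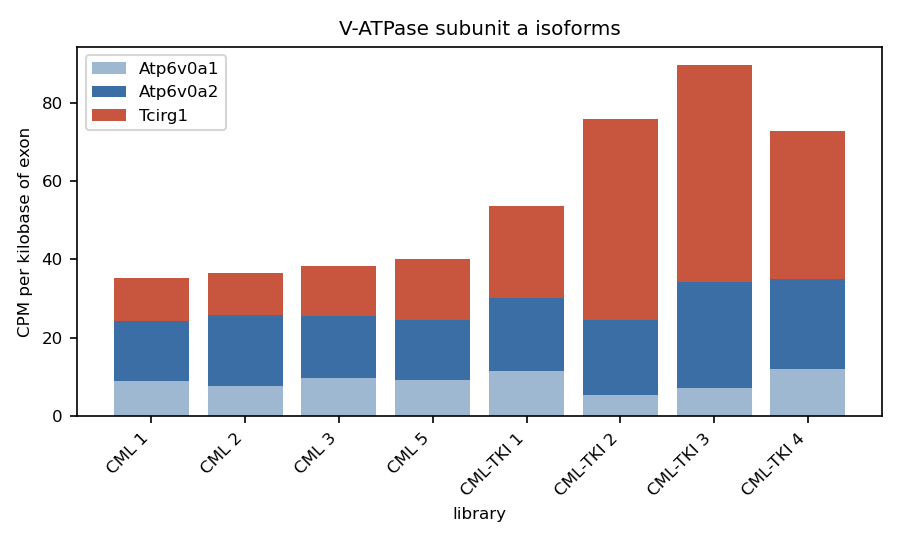
Stacked bars give, for each library (horizontal axis), the level of the subunit a genes Atp6v0a1, Atp6v0a2 and Tcirg1 in CPM per kilobase of exon (vertical axis, from 0). The bars reach 35.3 to 40.2 in the CML libraries and 53.5 to 89.7 in the CML-TKI libraries, and most of the added height is Tcirg1.

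Among the hydrolases, the peptidases showed the largest differences, with 5 of 8 higher and 0 lower. Ctss (chr3:95526786-95556405), which encodes cathepsin S, a cysteine protease that processes the invariant chain of MHC class II, had 3.11, 4.60, 5.38 and 4.78 CPM in CML and 24.7, 75.7, 148 and 79.1 CPM in CML-TKI libraries. All CML libraries were low and all CML-TKI libraries were above them (log2 fold change 4.18 ± 0.52, edgeR adjusted p = 0.00148). The means were 4.47 ± 0.962 CPM (SD, n = 4) for CML and 81.9 ± 50.6 CPM (SD, n = 4) for CML-TKI libraries, 18.3-fold apart. Ctsh (chr9:90054267-90076095), which encodes the aminopeptidase cathepsin H, had 4.87, 3.26, 4.99 and 7.51 CPM in CML and 38.5, 116, 90.4 and 104 CPM in CML-TKI libraries. Every CML-TKI library lay above every CML library, and CML-TKI 1 was the lowest of its group for both genes (log2 fold change 4.06 ± 0.43, edgeR adjusted p = 0.000870). The means of Ctsh were 5.16 ± 1.76 CPM (SD, n = 4) for CML and 87.2 ± 34.2 CPM (SD, n = 4) for CML-TKI libraries, 16.9-fold apart. Per kilobase of exon, Ctss and Ctsh moved from ranks 42 and 43 of the 44 members in CML libraries to ranks 15 and 18 in CML-TKI libraries. Ctsz (chr2:174427494-174439039), the gene of the carboxypeptidase cathepsin Z, had 48.97, 44.5, 43.6 and 57.8 CPM in CML and 151, 367, 237 and 139 CPM in CML-TKI libraries. The groups were well apart, with the lowest CML-TKI value above the highest CML value, and Ctsz moved from rank 13 to rank 3 (log2 fold change 2.20 ± 0.33, edgeR adjusted p = 0.00333). Ctsb (chr14:63122462-63145923), the gene of the cysteine protease cathepsin B, had 138, 126, 139 and 166 CPM in CML and 235, 366, 366 and 259.8 CPM in CML-TKI libraries. Its groups did not overlap (log2 fold change 1.11 ± 0.22, edgeR adjusted p = 0.0126). Ctsa (chr2:164832872-164841032), whose product is a carboxypeptidase that also stabilizes the sialidase encoded by Neu1, had 61.2, 59.4, 60.7 and 82.6 CPM in CML and 95.7, 174, 132 and 96.9 CPM in CML-TKI libraries. CML 5 lay apart from the other CML libraries and below CML-TKI 1 and 4, so that the groups did not overlap (log2 fold change 0.92 ± 0.25, edgeR adjusted p = 0.0482). With 1 library left out, Ctss, Ctsh and Ctsz kept their calls. Ctsb lost its call without CML 1, 2 or 3 (adjusted p up to 0.0598). Ctsa lost it without any library except CML-TKI 1 (adjusted p up to 0.146).

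The other 3 peptidases were not called. Ctsd (chr7:142375910-142387827), the gene of the aspartic protease cathepsin D, was the most abundant hydrolase gene per kilobase in CML libraries (107 CPM per kilobase in CML and 127 in CML-TKI libraries). Its levels were 213, 189, 196 and 309.6 CPM in CML and 256, 277, 286 and 258 CPM in CML-TKI libraries. CML 5 was higher than every CML-TKI library (log2 fold change 0.25 ± 0.21, edgeR adjusted p = 0.510). Ctsl, which encodes cathepsin L, ranged from 17.9 to 43.6 CPM in CML and from 13.7 to 90.2 CPM in CML-TKI libraries. The CML-TKI values reached to both sides of the CML range (log2 fold change 0.65 ± 0.52, edgeR adjusted p = 0.476). Tpp1, the gene of a tripeptidyl peptidase, had a log2 fold change of -0.25 (edgeR adjusted p = 0.537).

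**Figure D4:**
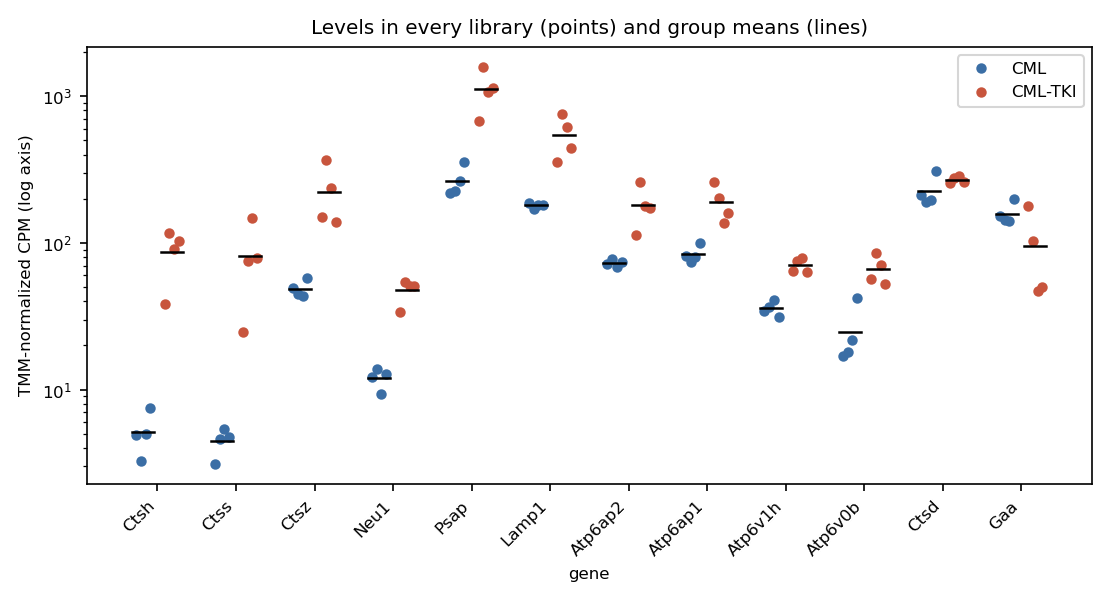
Points are TMM-normalized CPM in each library (vertical log axis) for 12 members (horizontal axis), blue for CML and red for CML-TKI, and lines are group means. From Ctsh to Atp6v0b every red point lies above every blue point of its gene, with means of 5.16 and 87.2 CPM for Ctsh, whereas the groups overlap in Ctsd and Gaa.

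Of the 6 glycosidases, Neu1 and Man2b1 were higher and 0 were lower. Neu1 (chr17:34931253-34937297), the lysosomal sialidase gene, had 12.2, 13.8, 9.41 and 12.7 CPM in CML and 33.96, 53.9, 51.2 and 50.7 CPM in CML-TKI libraries. CML-TKI 1 lay apart below the other 3 CML-TKI libraries and still above all CML libraries (log2 fold change 1.97 ± 0.28, edgeR adjusted p = 0.00265). Man2b1 (chr8:85082730-85098739), which encodes an alpha-mannosidase of glycoprotein degradation, had 118, 102, 98.1 and 134 CPM in CML and 121, 238, 295 and 267 CPM in CML-TKI libraries. It was the only called member whose groups overlapped, since CML-TKI 1 lay below CML 5 (log2 fold change 1.02 ± 0.28, edgeR adjusted p = 0.0488). Its call was lost without any library except CML-TKI 1 (adjusted p up to 0.145). Gaa (chr11:119267963-119285458), the gene of the glycogen-degrading acid alpha-glucosidase, had the highest level per kilobase of the glycosidases in CML libraries (38.9 CPM per kilobase in CML and 23.3 in CML-TKI libraries). Its levels were 152, 143, 139.96 and 199 CPM in CML and 178, 103, 46.8 and 50.4 CPM in CML-TKI libraries. CML-TKI 1 lay among the CML values and CML-TKI 2, 3 and 4 lay below them (log2 fold change -0.73 ± 0.40, edgeR adjusted p = 0.291). Without CML-TKI 1 the log2 fold change of Gaa was -1.24 and passed the threshold (edgeR adjusted p = 0.0222). Gaa was also called lower by limma-voom with all 8 libraries (log2 fold change -0.94, adjusted p = 0.0295), and in the other 17 of the 19 alternatives it was not called (adjusted p up to 0.650). Hexa, the gene of the hexosaminidase alpha subunit that acts on GM2 ganglioside, was the most abundant glycosidase gene in CML-TKI libraries (36.1 CPM per kilobase in CML and 71.4 in CML-TKI libraries). Its levels were 65.5, 61.7, 58.4 and 103 CPM in CML and 108, 208, 107 and 147 CPM in CML-TKI libraries. The groups were separated by a narrow margin at CML 5 (log2 fold change 0.99 ± 0.29, edgeR adjusted p = 0.0592). The alpha-galactosidase gene Gla and the beta-glucuronidase gene Gusb had log2 fold changes of 1.52 and 0.59 and did not pass either (edgeR adjusted p = 0.0796 and 0.196), although their groups did not overlap. Neu1 kept its call with any 1 library left out, with adjusted p up to 0.0176.

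Of the 3 hydrolases acting on lipids and thioesters, Asah1 was higher. Asah1 (chr8:41340646-41397644), the gene of acid ceramidase, had 42.2, 48.1, 48.4 and 41.8 CPM in CML and 65.8, 167, 88.2 and 73.9 CPM in CML-TKI libraries. CML-TKI 2 was highest and no CML-TKI library overlapped with CML (log2 fold change 1.13 ± 0.31, edgeR adjusted p = 0.0454). The call was lost without any library except CML-TKI 1 (adjusted p up to 0.135). Ppt1, the palmitoyl-protein thioesterase gene, was the most abundant of the 3 per kilobase in CML libraries (18.6 CPM per kilobase in CML and 17.7 in CML-TKI libraries). Its levels were 61.3, 73.8, 67.8 and 55.04 CPM in CML and 51.5, 95.4, 45.7 and 53.2 CPM in CML-TKI libraries, with overlapping groups (log2 fold change -0.06 ± 0.27, edgeR adjusted p = 0.915). Lipa, which encodes the acid lipase of cholesteryl esters, stood at 8.71 CPM in CML-TKI 3 and between 48.95 and 52.99 CPM in the other CML-TKI libraries. In CML libraries it ranged from 29.9 to 35.99 CPM (log2 fold change 0.34 ± 0.44, edgeR adjusted p = 0.675).

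The luminal cofactors aid hydrolases or lipid export without cutting substrates themselves, and 2 of the 3 were higher. Psap (chr10:60277628-60302600), the precursor gene of the saposins, which activate sphingolipid hydrolases, had 218, 226, 263 and 355 CPM in CML and 676, 1583, 1067 and 1128 CPM in CML-TKI libraries. It was the third most abundant member per kilobase in CML libraries and the most abundant in CML-TKI libraries, with 96.6 CPM per kilobase in CML and 406 in CML-TKI libraries. Every CML-TKI library lay above every CML library, and CML 5 was the highest of its group (log2 fold change 2.07 ± 0.29, edgeR adjusted p = 0.00264). Npc2 (chr12:84754559-84773112), whose product binds cholesterol in the lumen, had 51.1, 55.2, 53.6 and 76.2 CPM in CML and 89.1, 138, 165 and 163 CPM in CML-TKI libraries. Again the groups did not overlap (log2 fold change 1.23 ± 0.25, edgeR adjusted p = 0.0150). Its call was lost without CML 1, 2 or 3 (adjusted p up to 0.0658), whereas that of Psap held with any 1 library left out (adjusted p up to 0.0165). Grn, the progranulin gene, was not called and its groups overlapped because CML 5 had 143 CPM (log2 fold change 0.98 ± 0.30, edgeR adjusted p = 0.0636).

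Among the 7 membrane proteins, the LAMP glycoproteins that line the lysosomal membrane were higher and 0 were lower. Lamp1 (chr8:13159161-13175338) had 188, 171, 183 and 180.01 CPM in CML and 356, 757, 614 and 444 CPM in CML-TKI libraries. The CML libraries lay close together, and each CML-TKI library was far above them (log2 fold change 1.59 ± 0.25, edgeR adjusted p = 0.00469). Lamp2 (chrX:38399647-38456460), which also serves in chaperone-mediated autophagy, had 196, 195, 187 and 147 CPM in CML and 324, 659, 569 and 267 CPM in CML-TKI libraries. CML 5 was the lowest CML library for Lamp2 and the groups did not overlap (log2 fold change 1.32 ± 0.31, edgeR adjusted p = 0.0241). Laptm5 (chr4:130912890-130936148), a lysosomal membrane protein gene of blood cells, was the most abundant member per kilobase in CML libraries and the fourth in CML-TKI libraries (119.8 CPM per kilobase in CML and 146 in CML-TKI libraries). Its levels were 285, 297, 287 and 377 CPM in CML and 189, 459.6, 467 and 408 CPM in CML-TKI libraries. CML-TKI 1 lay below every CML library and the other CML-TKI libraries lay above them (log2 fold change 0.29 ± 0.29, edgeR adjusted p = 0.579). The tetraspanin gene Cd63, Scarb2, whose product carries glucocerebrosidase to lysosomes, and the cholesterol exporter gene Npc1 had log2 fold changes of 0.32, 0.44 and 0.38, with overlapping groups. Mcoln1, the lysosomal calcium channel gene, had a value of -0.11 on the same scale, and none of these 4 genes was called (edgeR adjusted p from 0.403 to 0.868). The call of Lamp1 held with any 1 library left out (adjusted p up to 0.0266). That of Lamp2 was lost without CML 1, 2, 3 or 5 and without CML-TKI 2 or 3 (adjusted p up to 0.0735).

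The transcription factors that bind the CLEAR element were not called at the transcript level. Tfeb (chr17:47737037-47792416) had 10.01, 12.8, 11.3 and 24.2 CPM in CML and 16.6, 20.6, 40.3 and 11.6 CPM in CML-TKI libraries. Its groups overlapped, with CML 5 above 3 of the 4 CML-TKI libraries (log2 fold change 0.58 ± 0.47, edgeR adjusted p = 0.484). The relatives Tfe3, Mitf and Tfec, which are not members, had log2 fold changes of 0.87, 0.22 and 0.71 (edgeR adjusted p = 0.224, 0.862 and 0.219), and CML-TKI 3 had the highest level of each. These genes belong to a list of 15 that also holds the folliculin complex and the Ragulator and Rag genes, which place mTORC1 on the lysosome. Of the 14 tested, edgeR called 0, beside 6.29% of all genes higher and 3.93% lower. An unadjusted p under 0.05 was found for 0 of the 14, beside 25.7% of all genes. Under limma-voom with quality weights the value of Mitf turned negative, as it did in 1 fit that left out a library, and Tfec passed the threshold in 1 of 19 alternative settings.

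A list of 102 other lysosomal genes, also chosen with earlier results of these data known, held no member. Of these, 96 were in the table and 90 were tested, with 11 (12.2%) higher and 4 lower, beside 6.29% higher and 3.93% lower of all genes, and with a median log2 fold change of 0.22. The 4 lower calls are a share near that of all genes. Among other hydrolases 6 of 37 were higher and 2 lower, among other membrane proteins 3 of 21 were higher and 2 lower. Among mannose 6-phosphate sorting genes and other V-ATPase isoforms and assembly factors 1 of 9 each was higher. Ctsc, the gene of cathepsin C, which activates granule serine proteases, had 67.1, 68.3, 71.03 and 52.3 CPM in CML and 266, 1258, 776 and 118 CPM in CML-TKI libraries. The spread was wide but the groups did not overlap (log2 fold change 3.22 ± 0.64, edgeR adjusted p = 0.0120). Cd68, a glycoprotein gene of macrophage lysosomes, had 1.08, 0.767, 2.11 and 2.19 CPM in CML and 5.66, 18.2, 20.7 and 12.9 CPM in CML-TKI libraries. Its CML values were near the floor (log2 fold change 3.18 ± 0.63, edgeR adjusted p = 0.0124). Arsb and Galns, sulfatase genes of glycosaminoglycan degradation, had log2 fold changes of 2.20 ± 0.35 and 1.43 ± 0.35 (edgeR adjusted p = 0.00462 and 0.0306). The peptidase genes Scpep1 and Ctse stood at 2.02 ± 0.42 and 1.85 ± 0.49 (edgeR adjusted p = 0.0155 and 0.0425), and Gm2a, the GM2 activator gene, at 1.37 ± 0.27 (adjusted p = 0.0123). The amino acid transporter gene Slc36a1 and the sorting receptor gene Sort1 were also higher, by 1.66 ± 0.33 and 1.11 ± 0.24 (edgeR adjusted p = 0.0120 and 0.0172). In the other direction, the cysteine protease gene Ctso had 49.7, 64.8, 50.5 and 47.4 CPM in CML and 16.04, 12.9, 27.2 and 30.2 CPM in CML-TKI libraries (log2 fold change -1.31 ± 0.32, edgeR adjusted p = 0.0307). The channel gene Mcoln2 had 21.5, 22.1, 25.3 and 20.5 CPM in CML and 11.5, 6.47, 4.36 and 2.84 CPM in CML-TKI libraries (log2 fold change -1.79 ± 0.46, edgeR adjusted p = 0.0377). For both genes every CML-TKI library lay below every CML library. The other 3 called genes, 1 higher and 2 lower, changed by smaller amounts. Of the 12 genes named here, Tcirg1 included, only Tcirg1 and Arsb kept their calls with each of the 8 libraries left out in turn, and none kept it with CML 1 to 3 summed. The number called was 3, 4 and 6 without CML 1, 2 or 3, 9 without CML-TKI 2 and 25 without CML-TKI 1. Of these, 3 of 92, 4 of 91, 5 of 92, 8 of 91 and 19 of 91 genes tested were higher, beside 2.97%, 3.12%, 3.34%, 4.57% and 9.64% of all genes in the same fits. Without CML 1 or CML 2 the share of the list that was higher thus lay near that of all genes.

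**Figure D5:**
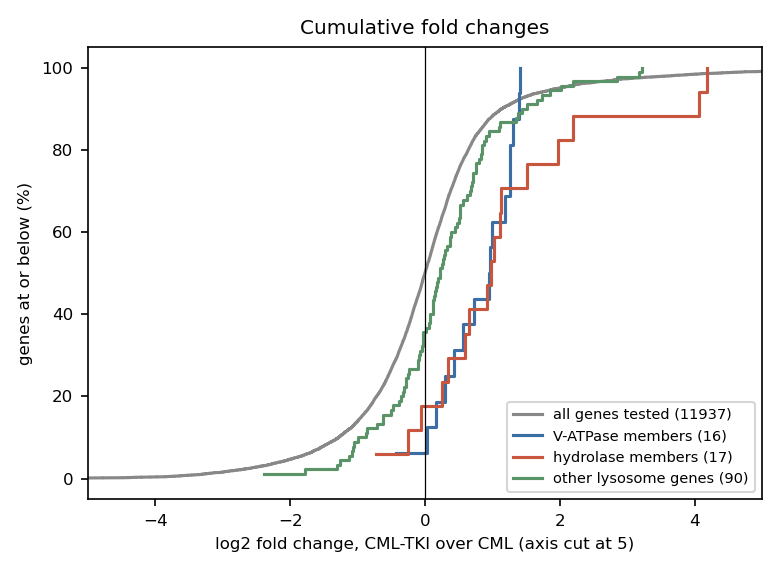
Lines give the percentage of genes (vertical axis) at or below each log2 fold change of CML-TKI over CML libraries (horizontal axis, ended at 5) for all 11937 genes tested, the 16 V-ATPase members, the 17 hydrolase members and the 90 other lysosome genes tested. The member lines cross 50% at 0.96 and 0.99, the other lysosome genes at 0.22 and all genes near 0.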

How the data were processed

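RNA of cells sorted as LSCs was measured by bulk RNA-seq in 4 CML and 4 CML-TKI libraries. The authors prepared Nextera XT libraries and quantified reads in Partek Flow, and they deposited estimated counts per gene, not normalized, with 1 column per library. The submitters' processing notes name Partek 8.0 and STAR 2.6.1d, and the study's methods name mm10, which is GRCm38. Because strand use and the handling of reads shared by close copies are not given in the sources used here, overlapping, antisense and near-identical genes are uncertain.

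Columns were matched to samples by group and number, CML 5 by group alone, and 0 columns of per-sample values were left unmapped. Estimated counts were rounded to integers. CML-TKI was compared with CML on all 11937 genes kept by filterByExpr (minimum count 10, minimum total count 15), with TMM normalization and robust quasi-likelihood dispersions in edgeR 4.0.16 (R 4.3.3). P values were adjusted over all of these genes by the Benjamini-Hochberg method with a threshold of 0.05. Standard errors are those of the log2 fold change implied by the F statistic, and log2 CPM used a prior count of 2. Levels per kilobase used the length of the union of each gene's GENCODE exons. Scripts were tested on simulated data whose dispersions were capped at their median, so the test does not give error rates for these libraries. Library totals ranged from 1041554 to 8620102 counts, and without molecular identifiers reads cannot be taken as independent molecules.

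The 44 members, the 102 other lysosome genes and the marker lists were chosen with earlier results of these data known. Each member was accounted for by role. Values in every library were given for called members and for those highest per kilobase within a role, and up to 12 called genes of the other list were named by size of change, besides Tfe3, Mitf and Tfec. Genes of the sort and the copy Atp6v0c-ps2 were added as context. Alternatives were RLE size factors, total counts with and without Rn45s, DESeq2 1.42.0, limma-voom (limma 3.58.1) with quality weights, no count filter or a minimum of 30, each library left out, a replicate block, thinning to the smallest total and CML 1 to 3 summed.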

Additional observations from a re-analysis of the deposited data

Results flagged for a closer look

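In each group of 4 libraries, the level of each member was examined for a library whose gap to the nearest other library took up most of the group's range, at the 95% value of Dixon's test. This held for 8 of 88 measures, where chance gives about 1 in 20, or about 4, and measures of the same libraries are not independent. CML 5 was the library concerned in 5 measures, CML-TKI 1 in 2 and CML-TKI 3 in 1.

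CML 5 stood above the other CML libraries for the V0 subunit gene Atp6v0e (79.6 CPM beside 39.7 to 43.5), the carboxypeptidase gene Ctsa (82.6 CPM beside 59.4 to 61.2), the progranulin gene Grn (143.3 CPM beside 85.9 to 91.96) and Laptm5 (377 CPM beside 285 to 297). It stood below them for Lamp2 (146.8 CPM beside 187 to 196). CML-TKI 1 stood below the other CML-TKI libraries for the sialidase gene Neu1 (33.96 CPM beside 50.7 to 53.9) and for Laptm5 (188.9 CPM beside 408 to 467). CML-TKI 3, the library with the smallest total, stood below its group for the acid lipase gene Lipa (8.71 CPM beside 48.95 to 52.99).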

How the results depend on the processing

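The direction of the members' median log2 fold change did not depend on any of the 19 alternatives, under which it ranged from 0.74 to 1.16, but the number of calls did. Scaling by total counts without Rn45s moved the median of all genes to -0.14, relative to which the members' median was 0.95. Ctsh and Ctss were called in 19 of 19 alternatives, Ctsz and Psap in 18, and Neu1 and Lamp1 in 17. Genes called over all 11937 numbered 1220, and 2157 with DESeq2, 2563 with limma-voom, 122 with CML 1 to 3 summed, and 505 to 2504 with 1 library left out. Member calls, 19 in edgeR and all higher, numbered 24 with DESeq2, 26 with limma-voom (25 higher and Gaa lower), 2 with CML 1 to 3 summed (Ctsh and Ctss) and 6 to 23 with 1 library left out (22 higher and Gaa lower without CML-TKI 1). V-ATPase calls (7) numbered 4 without Rn45s, 0 with CML 1 to 3 summed and 0 to 7 with 1 library left out, and at an unadjusted p under 0.05 there were 10 in edgeR, beside 25.7% of all genes. Hydrolase calls (8) numbered 5 without Rn45s, 5 with no count filter, 2 with CML 1 to 3 summed and 4 to 11 with 1 library left out. Calls among the other lysosome genes (15) numbered 23 with DESeq2, 23 with limma-voom, 0 with CML 1 to 3 summed and 3 to 25 with 1 library left out. Same-numbered libraries 1, 2 and 3 did not deviate together (r across genes of -0.042, 0.097 and 0.093), so the numbers were not taken to pair animals. With a replicate block on libraries 1 to 3 there were 193 calls over all genes, 4 among the members, 0 V-ATPase, 3 hydrolase and 2 other lysosome calls. The same libraries without pairing, a setting chosen after seeing the data, gave 589, 12, 3, 5 and 5. Signs turned for Atp6v0a1, Ppt1, Mcoln1, Mitf and Lipa. Their log2 fold changes in the main fit were 0.03, -0.06, -0.11, 0.22 and 0.34. Atp6v0a1 stood at -0.10 without Rn45s, -0.0046 with no filter, -0.17 with the replicate block, -0.11 without pairing, -0.021 with CML 1 to 3 summed and -0.15 to 0.21 with 1 library left out. Ppt1 stood at -0.36 to 0.060 and Mcoln1 at -0.25 to 0.046 with 1 library left out, Mcoln1 at 0.011 and Mitf at -0.54 with limma-voom, Mitf at -0.45 to 0.48 with 1 library left out, and Lipa at -0.080 with the replicate block. The causes were not tested. Of the values of single genes under alternatives, 916 kept direction and side of the threshold, 216 lost and 25 gained significance, and 18 turned sign. Depth limited low genes most in CML-TKI 3.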
